A study of Mus musculus with 8 samples.

Results

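Expression of 35 genes of polyamine synthesis, Myc and ribosome biogenesis was followed in single islet cells of mice that had or had not undergone partial pancreatectomy (PPTx). The genes were taken by name from the 24421 gene columns shared by the 8 count tables, from a list made with earlier results of these data known, and their counts were taken both summed and singly. All animals were male C57BL/6J mice aged 8 weeks. The control group of 4 samples had no operation, and the PPTx group of 4 samples was taken 2 days after removal of 50% of the pancreas. Each sample pooled islets of 1 or more mice, dispersed with trypsin. The PPTx islets came from the part of the pancreas left in place, so pancreatic region and operation cannot be told apart. Nothing in the labels says whether the samples of a group were collected or sequenced together, so p-values measure the spread between these pooled samples.

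The 4 genes of polyamine synthesis act in one pathway. Odc1 makes putrescine from ornithine, Amd1 makes decarboxylated S-adenosylmethionine, Srm joins their products into spermidine and Sms makes spermine. Spermidine is also the donor for hypusine, a modified lysine found in the translation factor Eif5a. Myc is a transcription factor that binds the E-box CACGTG with its partner Max, and genes of polyamine synthesis and of the nucleolus are known targets. Ribosome biogenesis begins in the nucleolus, where RNA polymerase I (Polr1b, Polr1c and Polr1d are subunits) copies the ribosomal RNA genes. Box C/D particles (Fbl, Nop56, Nop58) methylate the transcript and box H/ACA particles (Dkc1, Nhp2, Nop10, Gar1) convert uridines to pseudouridines. The remaining members are nucleolar chaperones and organisers (Ncl, Npm1, Nolc1, Gnl3, Ddx21, Mybbp1a) and assembly factors of the small (Rrp9, Rrp12, Wdr43, Heatr1, Nob1) and large (Bop1, Pes1, Wdr12, Ebna1bp2, Rrs1, Nip7, Nop16, Noc2l) subunits. In islets, raised Myc is known to drive β-cells into replication.

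The E-box was searched for in the RefSeq promoter windows of build GRCm38.p6, which run from 250 bases before to 50 bases after a transcription start. The motif reads the same on both strands. Windows were found for 28 of the 35 members, and those of Srm, Myc, Npm1, Fbl, Rrs1, Bop1 and Rrp12 were not used here. At least 1 window held CACGTG in 5 of the 28 members (17.9%), against 8.09% of the 27025 genes in the table. One window of each of the 5 is shown because these are the members whose start region carries the letters that Myc is known to bind, with CACGTG in capitals and its first base numbered from the start site. A match is a description of the sequence and not evidence of binding.
Sms (chrX:157492238-157492537, - strand, CACGTG beginning at -196): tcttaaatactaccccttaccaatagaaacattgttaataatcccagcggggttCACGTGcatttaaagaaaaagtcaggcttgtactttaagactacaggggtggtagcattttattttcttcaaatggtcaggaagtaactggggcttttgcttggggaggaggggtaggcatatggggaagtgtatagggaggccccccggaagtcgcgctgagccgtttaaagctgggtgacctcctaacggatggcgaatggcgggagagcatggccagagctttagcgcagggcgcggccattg
Eif5a (chr11:69921337-69921636, - strand, CACGTG beginning at -74): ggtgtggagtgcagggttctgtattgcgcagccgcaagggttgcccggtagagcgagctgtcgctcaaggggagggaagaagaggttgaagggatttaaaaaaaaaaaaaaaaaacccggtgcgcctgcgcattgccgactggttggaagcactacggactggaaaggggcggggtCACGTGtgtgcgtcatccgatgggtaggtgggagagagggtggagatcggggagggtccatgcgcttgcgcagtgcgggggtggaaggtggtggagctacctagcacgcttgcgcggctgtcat
Pes1 (chr11:3963725-3964024, + strand, CACGTG beginning at +2): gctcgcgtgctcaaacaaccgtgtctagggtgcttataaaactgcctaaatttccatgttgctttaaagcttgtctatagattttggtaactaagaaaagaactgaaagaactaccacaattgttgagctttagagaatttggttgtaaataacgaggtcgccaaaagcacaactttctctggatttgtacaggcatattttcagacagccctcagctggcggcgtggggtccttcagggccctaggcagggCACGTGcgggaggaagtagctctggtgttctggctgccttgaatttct
Wdr43 (chr17:71615965-71616264, + strand, CACGTG beginning at +17): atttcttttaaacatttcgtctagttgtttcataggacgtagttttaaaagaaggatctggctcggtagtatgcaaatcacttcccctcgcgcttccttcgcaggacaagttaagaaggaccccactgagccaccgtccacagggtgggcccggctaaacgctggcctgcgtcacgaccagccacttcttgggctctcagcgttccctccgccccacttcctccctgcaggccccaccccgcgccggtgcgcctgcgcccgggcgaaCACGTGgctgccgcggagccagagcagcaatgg
Mybbp1a (chr11:72441077-72441376, + strand, CACGTG beginning at +40): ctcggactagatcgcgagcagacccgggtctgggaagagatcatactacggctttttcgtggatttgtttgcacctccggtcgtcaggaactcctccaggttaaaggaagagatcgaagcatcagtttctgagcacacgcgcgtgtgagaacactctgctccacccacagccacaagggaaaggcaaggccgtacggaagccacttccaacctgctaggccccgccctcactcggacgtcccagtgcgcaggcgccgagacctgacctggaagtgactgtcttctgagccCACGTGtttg

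The tables held 1240 cells, of which 1232 were within the study's limits of 100 to 3000 genes and 100 to 20000 UMIs (unique molecular identifiers, each counting 1 captured transcript at its 3′ end). Samples held 65 to 294 kept cells, with medians of 3328 to 8677 UMIs. Cells were classed by hormone UMIs into 918 β-cells, 120 α-cells, 132 PP cells and 16 delta cells. One cell was an epsilon cell, and 29 cells with mixed hormones and 16 with under 10% hormone UMIs were left out. PP cells were 3.08% to 8.82% of control cells and 11.4% to 15.3% of PPTx cells, and α-cells were 9.23% to 28.3% and 1.27% to 5.93%. One barcode occurred in 2 samples. Levels are given as CPM (UMIs of the gene per 1000000 UMIs of all genes) in the summed cells of a class and sample. With 3′ counts, no correction for transcript length was needed.

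The members are scarce transcripts. Together they gave 6818 of 7746362 UMIs. Within β-cells the most abundant were Eif5a (743 UMIs), Npm1 (542), Ncl (519), Nop10 (399), Polr1d (309) and Srm (296). The others gave from 16 UMIs (Polr1b) to 172 (Ebna1bp2), and Myc gave 49. Amd1 had no UMI in any cell, and neither had Amd2, its near-identical copy, which could share its reads. A count of 0 in 7746362 UMIs allows up to 0.387 CPM for Amd1, by 3 counts, and says nothing of how reads shared between the copies were treated. Thus 34 members carried counts, and Eif5a, which is made functional by the product of Srm, was the most abundant of them in β-cells.

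**Figure D1:**
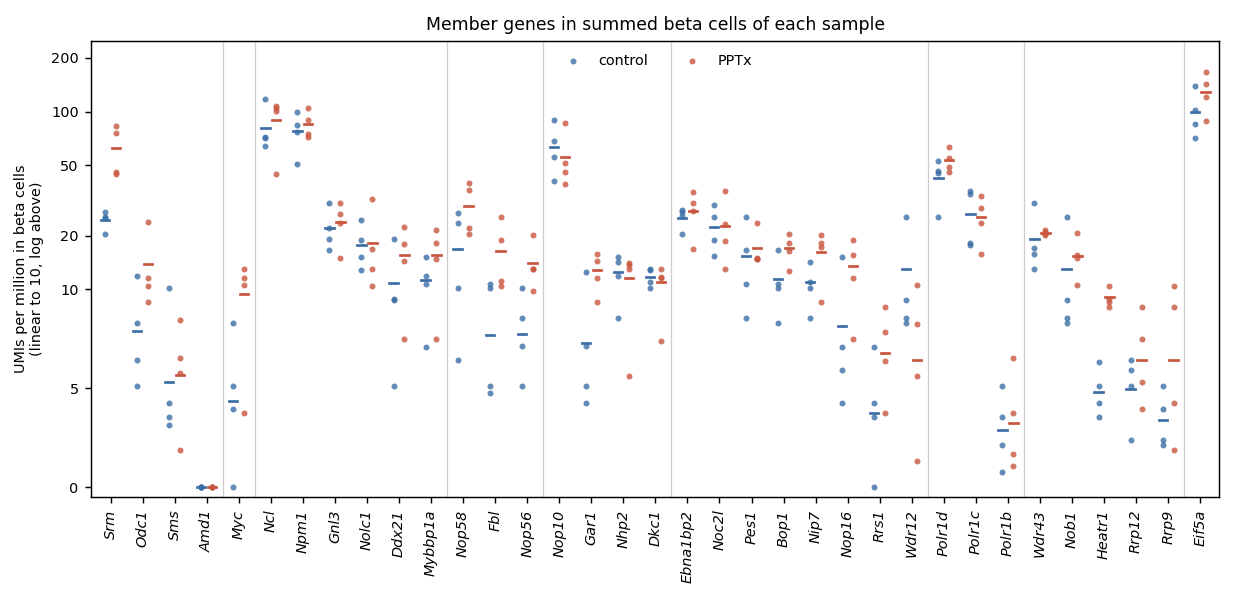
CPM in summed β-cells (vertical axis, linear to 10 and logarithmic above) for each of the 35 members, grouped by role between the grey lines. Points are the 4 control (blue) and 4 PPTx (red) samples and bars are group means. Srm and Heatr1 are the members whose PPTx points all lie above their control points.

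In β-cells, Srm, the spermidine synthase, was higher after PPTx. The gene lies at chr4:148591513-148594619 (GRCm38.p6). It measured 20.4, 25.6, 25.2 and 27.3 CPM in controls 1 to 4, and 75.9, 82.7, 45.5 and 44.8 CPM in PPTx samples 1 to 4. The groups did not overlap, PPTx 1 and 2 stood well above PPTx 3 and 4, and the counts behind these levels ran from 4 UMIs in control 1 to 100 in PPTx 2. The means were 24.6 ± 2.97 and 62.2 ± 19.9 CPM (SD, n = 4 each). The log2 fold change was 1.20 ± 0.24 (SE), a 2.29-fold rise (adjusted p = 0.0135, edgeR quasi-likelihood test with Benjamini-Hochberg adjustment over 9236 genes). Srm was 14th of the 9236 genes when ordered by p. It was the single member called of 33 tested, where 0.303% of all genes tested were called (18 higher and 10 lower). Amd1 and Polr1b were too scarce to be tested. The Srm call depended on which sample was left out. It was lost without control 1, control 2, control 3, PPTx 1 or PPTx 2 and kept without control 4, PPTx 3 or PPTx 4, with log2 fold changes of 1.07 to 1.33 and adjusted p of 0.00713 to 0.0955 over the 8 such fits.

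More β-cells held a Srm UMI after PPTx. A Srm UMI was found in 62 of 368 control β-cells (16.8%) and in 165 of 550 PPTx β-cells (30.0%). By sample, these shares were 7.41%, 14.3%, 22.1% and 17.4% in controls 1 to 4. They were 41.1%, 34.7%, 28.0% and 15.8% in PPTx samples 1 to 4, with PPTx 4 within the control range. With each cell thinned to 2700 UMIs, which left out 81 β-cells, the shares were 24 of 345 (6.96%) and 79 of 492 (16.1%). By sample, the thinned shares were 4.65%, 10.8%, 7.69% and 4.50% in controls 1 to 4 and 18.3%, 21.5%, 7.07% and 12.8% in PPTx samples 1 to 4. PPTx 3 therefore lay within the control range by this measure. No β-cell held more than 3 Srm UMIs in controls, and the maximum was 6 in PPTx samples. In the pooled α-, delta and PP cells the thinned shares were 5.88% in controls and 2.88% after PPTx.

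Other genes moved with PPTx in the same β-cells. The summed level of 10 S phase markers was 35.7 to 74.1 CPM in controls and 131 to 201 CPM in PPTx samples. Of those 10, Mcm6, a subunit of the replicative helicase, was called (5.85 ± 4.67 against 35.6 ± 11.5 CPM, SD, n = 4 each). The 10 replication markers, which include Top2a and Cdk1, summed to 30.8 to 112 and 29.9 to 86.9 CPM. In the 638 β-cells with no UMI of these 20 markers, Srm measured 24.0, 28.7, 21.8 and 22.2 CPM in controls and 51.7, 71.7, 31.9 and 39.5 CPM in PPTx samples. There the groups again did not overlap, but the log2 fold change was 0.96 ± 0.28 and the call was lost (adjusted p = 0.256, edgeR). This division was made after the data were seen, and it kept 75.4% to 85.2% of the β-cells of control samples and 57.7% to 73.7% of those of PPTx samples. In the β-cells that it left out, Srm measured 0, 11.8, 34.0 and 42.3 CPM in controls and 110, 95.8, 63.2 and 57.7 CPM in PPTx samples. Markers of exocrine cells had higher means after PPTx, with overlapping ranges. The 8 acinar markers summed to a mean of 15.8 CPM in controls (4.27 to 45.9) and 50.1 CPM after PPTx (7.41 to 140), with Prss1 and Amy2b at 0 in both groups and Cpa1 at 0 in controls. The 5 ductal markers summed to a mean of 9.28 CPM (2.14 to 20.4) and 47.4 CPM (10.6 to 133), with Cftr at 0 in both groups, Sox9 at 0 in controls and Muc1 at 0 after PPTx. Most of that ductal sum was Spp1, at 8.69 CPM in controls and 45.5 CPM after PPTx. Spp1 averaged 155 CPM in PP cells. In the 755 β-cells with no UMI of these 13 genes, Srm kept a log2 fold change of 1.21 ± 0.27 (adjusted p = 0.0249, edgeR). This division too was made after the data were seen. Ppy, a hormone of PP cells, averaged 259 and 839 CPM in control and PPTx β-cells, and Gcg, the hormone of α-cells, 347 and 88.2 CPM. The part of free hormone RNA in the result was not tested.

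Odc1, Sms and Myc had positive log2 fold changes that were not called. Odc1, the first enzyme of the pathway, measured 5.10, 6.41, 11.8 and 8.30 CPM in controls and 10.5, 24.0, 11.6 and 9.34 CPM after PPTx. The groups overlapped, with PPTx 2 far above the rest, and the log2 fold change was 0.56 ± 0.39 (adjusted p = 0.759, edgeR). Sms had 32 UMIs in all β-cells and a log2 fold change of 0.44 ± 0.57. Myc measured 5.10, 0, 3.94 and 8.30 CPM in controls and 13.1, 11.6, 10.6 and 3.74 CPM after PPTx. Thus 3 of the 4 PPTx samples lay above every control and the PPTx 4 sample lay among them (log2 fold change 0.99 ± 0.53, adjusted p = 0.628, edgeR). Eif5a was between 71.4 and 139 CPM in controls and between 88.5 and 166 CPM after PPTx, a log2 fold change of 0.21 ± 0.22.

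Among the ribosome biogenesis members, none was called in β-cells. The 3 box C/D proteins had log2 fold changes from 0.48 to 0.94. The highest was that of Fbl, the methyltransferase of the particle, with 5.10, 10.7, 10.2 and 4.75 CPM in controls and 10.5, 19.0, 25.4 and 11.2 CPM after PPTx. The lowest PPTx value fell just below the highest control, and the call was not made (0.94 ± 0.39, unadjusted p = 0.0226, adjusted p = 0.507, edgeR). All 5 small subunit factors had positive values, from 0.21 (Wdr43) to 0.92 (Rrp9), with Rrp12 at 0.43 and the endonuclease Nob1 at 0.48. Heatr1, which is needed for early steps of small subunit assembly, measured 5.10, 4.27, 6.30 and 3.56 CPM in controls and 10.5, 9.10, 9.53 and 9.34 CPM after PPTx. Heatr1 and Srm were the 2 of 33 tested members with every PPTx sample above every control, and 3.94% of all genes tested showed that order. The Heatr1 difference was not called (0.80 ± 0.48, adjusted p = 0.688, edgeR), and it rested on 47 UMIs.

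Other roles showed smaller or mixed differences. Of the 8 large subunit factors 6 had positive values, and they spanned -0.72 (Wdr12) to 0.90 (Nop16, unadjusted p = 0.0403, adjusted p = 0.571, edgeR). Between them lay Ebna1bp2 (-0.0025), Noc2l (0.08), Pes1 (0.16), Bop1 (0.31), Rrs1 (0.40) and Nip7 (0.43). The box H/ACA particle had 1 positive value of 4, that of Gar1 (0.47 ± 0.40), and the pseudouridine synthase Dkc1 had -0.26, Nhp2 -0.12 and Nop10 -0.37 ± 0.24. Polr1c and Polr1d lay at -0.02 ± 0.31 and 0.08 ± 0.23. The nucleolar proteins Ncl and Npm1, which are abundant enough for standard errors of about 0.2, had 0.14 ± 0.22 and -0.04 ± 0.20. Of the other nucleolar proteins, Mybbp1a had 0.59, the helicase Ddx21 0.47, Gnl3 0.15 and Nolc1 -0.14. In all, 25 of 33 tested members had a positive log2 fold change, against 50.8% of all genes tested, and the median was 0.40 against 0.01. The size of that median depended on the settings. With the filter at a minimum count of 10, which kept 20 members, 14 were positive and the median was 0.14, and in β-cells without Top2a or Cdk1 UMIs the median was 0.27. The members were tested on few UMIs each, and this count carries no test.

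**Figure D2:**
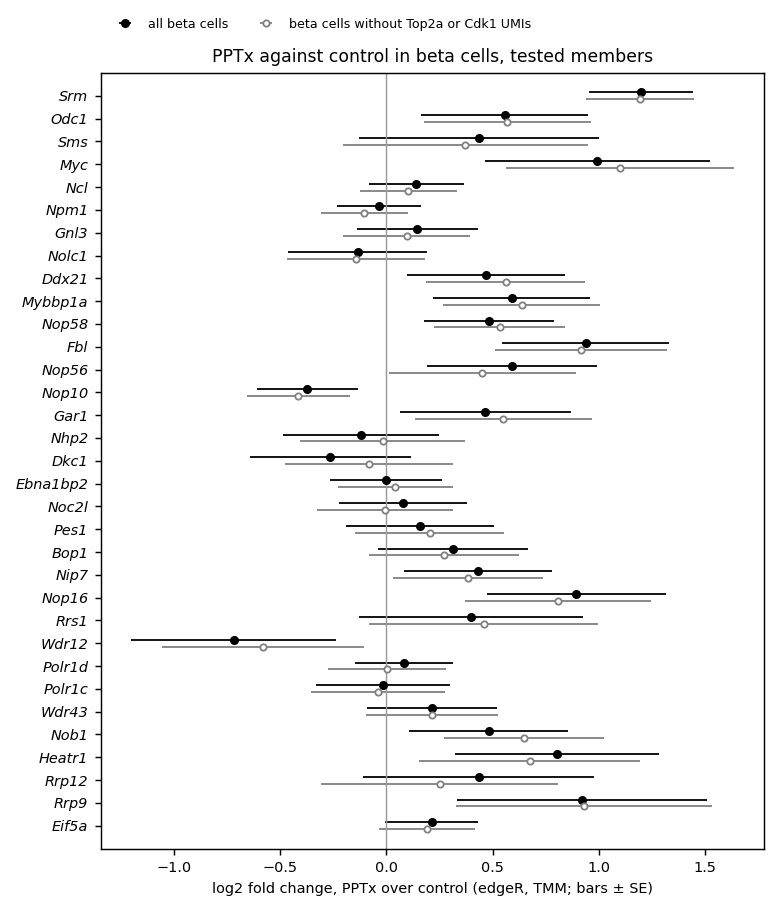
Log2 fold change of PPTx over control (horizontal axis, edgeR) for the 33 tested members in all β-cells (black) and in β-cells without a UMI of Top2a or Cdk1 (open), with bars for the standard error. Srm, at 1.20 in both fits, has the highest value of the members in each fit and short bars, while Myc, next to it, has wide ones.

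In the β-cells without Top2a or Cdk1 UMIs, which leaves out 45 cells, Srm measured 20.6, 26.0, 25.3 and 26.9 CPM in controls and 80.4, 81.4, 41.2 and 46.4 CPM after PPTx. The groups did not overlap, and the log2 fold change was 1.20 ± 0.25 (adjusted p = 0.0237, edgeR). Srm was again the 1 member called of 33, with 0.302% of all genes tested called. This call was lost when any control, or PPTx 1 or PPTx 2, was left out, with adjusted p up to 0.139. DESeq2 gave Srm no adjusted p in these cells.

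Summed over all members, β-cells measured 708, 684, 795 and 682 CPM in controls 1 to 4 and 821, 969, 975 and 784 CPM in PPTx samples 1 to 4. PPTx 4 fell below control 3, so the groups overlapped. The means were 717 ± 53.3 and 887 ± 99.0 CPM (SD, n = 4 each), a 1.23-fold difference between the means of the log2 levels. In CPM computed outside 8 hormone genes, the means were 2094 ± 229 and 2394 ± 158. The groups overlapped there too, with control 3 (2434) above PPTx 1, PPTx 2 and PPTx 4 (2332, 2313 and 2300). The hormone share of β-cell UMIs was 65.6% ± 1.57 in controls and 62.9% ± 3.43 after PPTx.

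In the pooled α-, delta and PP cells, 14 members were abundant enough to be tested between PPTx and control, and none was called, where 0.452% of all genes tested were called. No member reached an adjusted p under 0.05 with DESeq2 either, but DESeq2 gave no adjusted p to 4059 of the 4869 genes in this fit. With edgeR, 1 member had an unadjusted p under 0.05. That member was Polr1c, a subunit shared by RNA polymerases I and III, with 37.3, 79.9, 22.8 and 43.1 CPM in controls and 19.5, 18.4, 17.5 and 0 CPM after PPTx. The groups did not overlap, on 37 UMIs in all, and the log2 fold change was -1.18 ± 0.58 (adjusted p = 0.765, edgeR). Srm was untested there with 32 UMIs, and its means were 18.4 ± 16.7 and 15.9 ± 13.7 CPM (SD, n = 4 each). The make-up of these cells differed between groups, with more α-cells in controls and more PP cells after PPTx. In the PP cells alone, Polr1c measured 78.7, 35.6 and 33.2 CPM in controls 2 to 4 and 22.3, 17.8, 8.47 and 0 CPM after PPTx. In the α-cells alone it measured 0, 74.6, 16.3 and 50.1 CPM in controls and 22.0 and 42.6 CPM in PPTx 2 and 3. The PP groups did not overlap and the α groups did, and neither was tested. The summed level of the pooled cells was 820, 870, 1173 and 1058 CPM in controls and 954, 1049, 999 and 908 CPM after PPTx, the PPTx values lying within the control range. Outside the hormone genes its means were 2092 ± 342 and 2429 ± 103 CPM (SD, n = 4 each), with overlap. By class, the summed level was 970 to 1223 CPM in the α-cells of 4 controls and 1274 and 1298 CPM in those of 2 PPTx samples, without overlap. Hormone levels of α-cells also differed, here as means of 4 control and 4 PPTx samples. Ppy averaged 17143 and 58532 CPM, Ins2 7405 and 15102 CPM, and Gcg 436303 and 356976 CPM. In PP cells the summed level was 835 ± 94.7 CPM (SD, n = 3) in controls and 902 ± 69.5 CPM (SD, n = 4) after PPTx, with overlap.

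Whether the PPTx effect differed between β-cells and these other cells was tested for 32 members. None was called by edgeR, 0 had an adjusted p under 0.05 by DESeq2, and 2 had an unadjusted edgeR p under 0.05, with 0.0761% of all genes tested called. The difference for Srm was 1.52 ± 0.61 on the log2 scale (unadjusted p = 0.0132, adjusted p = 0.775) and for Nop16, a large subunit factor, 2.62 ± 0.98 (unadjusted p = 0.00743, adjusted p = 0.684). Therefore the rise of Srm was called in β-cells, and a difference from the other hormone cells was not shown.

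β-cells with a UMI of Top2a or Cdk1, both genes of dividing cells, were compared with other β-cells of the same sample. There were 45 such cells among 918 (4.90%), with 1 to 4 per control sample and 5 to 14 per PPTx sample. In the α-, delta and PP cells 3 of 268 cells (1.12%) had such a UMI, with a median of 4304 UMIs per cell against 6137 in β-cells. The comparison used the 6 samples with 3 or more such cells, which leaves out controls 1 and 2. Their summed UMIs were 18431 to 94405 per sample, so a single UMI was worth up to 54.3 CPM. Ncl (nucleolin), Npm1 (nucleophosmin) and Nop56 were higher in these cells in each of the 6 samples, Nop56 on 12 UMIs in all. In the main edgeR fit of this comparison all 10 S phase markers were called higher. Of 9 tested β-cell markers 7 were called lower, among them G6pc2, Ucn3 and Ins2. Gcg, Ttr, Sst, Pcsk1n and Ppy, markers of other islet cells, were also called lower. In that fit 511 of 8821 genes tested were called (5.79%), 184 higher and 327 lower. Only 28.2% of all genes had a positive log2 fold change there. These marker calls are given for that fit alone, and the next paragraphs show that calls depended on the scaling.

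Ncl, at chr1:86344719-86359455, measured 153 and 317 CPM in the Top2a or Cdk1 cells of controls 3 and 4, and 88.7, 152, 180 and 380 CPM in those of PPTx 1 to 4. In the other β-cells of those samples it measured 67.9, 64.8, 40.2, 101, 98.8 and 90.9 CPM. All but 1 of the values in Top2a or Cdk1 cells lay above every value of the other cells. Npm1, at chr11:33152498-33164142, measured 131, 238, 163, 165, 169 and 271 CPM against 81.8, 95.4, 63.2, 100, 81.2 and 67.7 CPM. Its 2 ranges did not overlap. Nop56, a core box C/D protein, measured 21.8, 39.7, 29.6, 38.0, 31.8 and 109 CPM against 9.81, 6.11, 11.5, 7.96, 18.8 and 9.67 CPM, on 12 and 60 UMIs in all. Among all genes tested, 2.64% were higher in each of the 6 samples, and among the 32 tested members these were the 3. At this depth a single UMI of Nop56 could place a small sum above that of the other β-cells. Little can therefore be read from the order of Nop56.

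Whether these differences were called depended on the scaling. With TMM, the scaling of edgeR that was used for every main test, the median log2 fold change of all genes in this comparison was -0.41, and with library sizes counted outside the hormone genes it was 0.01. With TMM, none of 32 tested members was called and 5.79% of all genes tested were (184 higher and 327 lower), and 5 members had an unadjusted p under 0.05. With the other scaling 2 members were called, Ncl and Npm1, and 3.47% of all genes tested (258 higher and 48 lower). The log2 fold change of Ncl was 0.61 ± 0.29 with TMM (adjusted p = 0.215) and 1.07 ± 0.28 with the other scaling (adjusted p = 0.00449). For Npm1 it was 0.50 ± 0.29 (adjusted p = 0.327) and 0.96 ± 0.27 (adjusted p = 0.0156), and for Nop56 1.14 ± 0.58 (adjusted p = 0.250) and 1.56 ± 0.59 (adjusted p = 0.147), all by edgeR. DESeq2 called the same 2 members, Ncl at 1.05 ± 0.29 (adjusted p = 0.0118) and Npm1 at 0.92 ± 0.27 (adjusted p = 0.0278). Relative to the median of all genes, Ncl stood 1.03 higher with TMM and 1.06 higher with the other scaling, and Npm1 0.92 and 0.95 higher. With cells thinned to equal UMIs and classed by the UMIs that were left, 4 samples (control 4 and PPTx 1 to 3) and 17 members could be tested, and none was called. Ncl then lay at 0.03 ± 0.63 (adjusted p = 0.980, edgeR) and Npm1 at -0.41 ± 0.65 (adjusted p = 0.719, edgeR), and Nop56 was not among those tested. Ncl was the 1 member of the 17 with a positive value, when 16.0% of all genes had one and their median was -1.10.

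Srm had no common direction in the Top2a or Cdk1 cells. It measured 21.8, 39.7, 29.6, 101, 84.7 and 0 CPM in them and 25.3, 26.9, 80.4, 81.4, 41.2 and 46.4 CPM in the other β-cells, higher in 3 of 6 samples. The log2 fold change was -0.41 ± 0.40 with TMM and -0.03 ± 0.40 with the other scaling. Eif5a was higher in 4 of 6 samples, with -0.50 ± 0.30 and -0.05 ± 0.28. The 45 cells held 3 UMIs of Myc and 2 each of Odc1 and Sms, too few to place a difference. Pes1, which acts with Bop1 and Wdr12 in large subunit assembly, had 1 UMI in the 45 cells and 96 in the others (-2.93 ± 1.05, adjusted p = 0.0717 with TMM and 0.244 with the other scaling, edgeR). Without PPTx 3, whose cells held that UMI, Pes1 was called with no UMI left in the class (adjusted p = 0.0413, edgeR). Mybbp1a, a nucleolar protein, had 1 and 84 UMIs (-2.78 ± 1.08, adjusted p = 0.107 with TMM and 0.309 with the other scaling, edgeR), and Ddx21 2 and 87 (-1.85 ± 0.91, adjusted p = 0.235 with TMM and 0.560 with the other scaling, edgeR). Pes1 and Mybbp1a, like 4.21% of all genes tested, were lower in each of the 6 samples, but nothing can be read from that count at this depth. The Top2a or Cdk1 sums held 18431 to 94405 UMIs per sample, and a sum with no UMI of a gene counts as lower whatever its level. Over the tested members, 7 of 32 log2 fold changes were positive with TMM, when 28.2% of all genes were, and 19 of 32 with the other scaling, when 50.3% of all genes were.

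**Figure D3:**
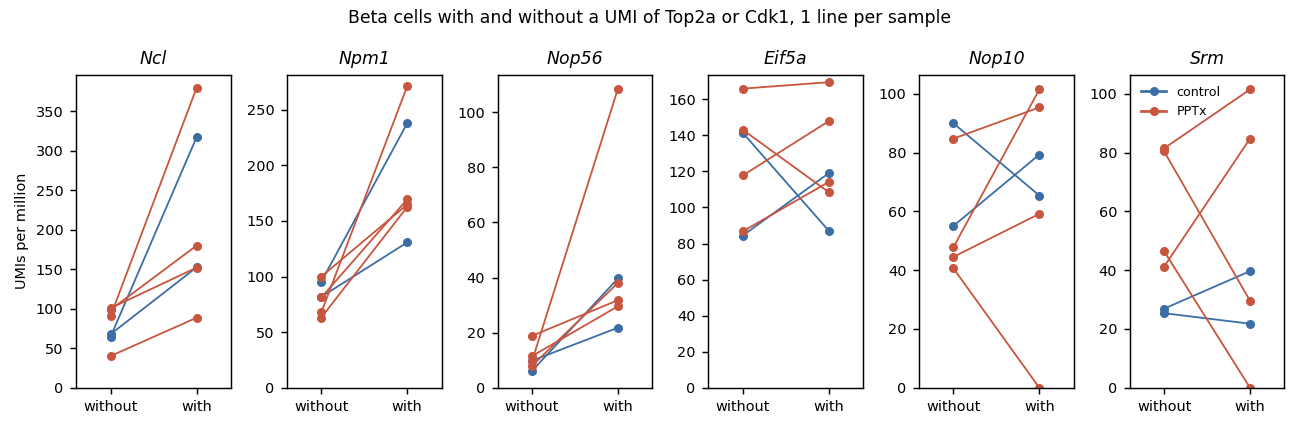
CPM (vertical axes, each from 0) of 6 members in β-cells without and with a UMI of Top2a or Cdk1, with 1 line per sample (2 control in blue, 4 PPTx in red). The lines of Ncl, Npm1 and Nop56 rise in all 6 samples, and those of Eif5a, Nop10 and Srm run both ways.

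Per cell, thinned counts are few in this class and varied between samples. An Ncl UMI was kept in 16 of 41 thinned Top2a or Cdk1 cells (39.0%) and in 145 of 796 other β-cells (18.2%), with a higher share in 5 of the 6 samples and 0% against 14.0% in PPTx 1. For Npm1 the shares were 14 of 41 (34.1%) and 161 of 796 (20.2%), higher in 3 of the 6 samples and lower in control 3, control 4 and PPTx 2. In controls overall the Npm1 shares were 1 of 9 (11.1%) and 66 of 336 (19.6%). For Eif5a the thinned shares were 9 of 41 (22.0%) and 223 of 796 (28.0%), the opposite order to its unthinned shares of 53.3% and 48.6%. Before thinning the Ncl shares were 71.1% and 37.8%, and the classes had medians of 7357 and 6093 UMIs. The summed level of all members was 915 and 1309 CPM in the Top2a or Cdk1 cells of controls 3 and 4 and 828, 1255, 1165 and 1682 CPM in those of PPTx 1 to 4. It exceeded that of the other β-cells in each of the 6 samples, by a mean of 1.42-fold (log2 0.51 ± 0.46, SD, n = 6). In CPM computed outside the hormone genes it was higher in 5 of the 6 samples, with control 3 at 2573 against 2428, and PPTx 1 had the opposite order (2114 against 2356).

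Over control and PPTx samples together, Npm1 was called higher and Srm lower in α- and PP cells than in β-cells of the same samples. Npm1 measured 328, 274, 228 and 251 CPM in α-cells of controls 1 to 4, and 220 and 426 CPM in those of PPTx 2 and 3. In PP cells it measured 157, 214 and 199 CPM in controls 2 to 4 and 201, 228, 169 and 306 CPM in PPTx 1 to 4. In β-cells it ran from 51.0 to 104 CPM over 8 samples, below every α and PP value. The log2 fold change was 0.98 ± 0.22 in α-cells and 0.97 ± 0.20 in PP cells, called in both by edgeR and in each of the 14 alternatives run for each. Npm1 was 1 of 28 members tested to be higher, and 18.1% of all genes tested were called in α-cells and 18.4% in PP cells. More genes were called lower than higher in both comparisons, 948 against 403 and 929 against 440, and the split in PP cells was 639 lower and 706 higher with library sizes outside the hormone genes.

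Srm measured 0, 24.9, 28.5 and 20.1 CPM in α-cells of controls 1 to 4 and 43.9 and 0 CPM in those of PPTx 2 and 3, on 13 UMIs. In PP cells it measured 0, 71.3 and 22.1 CPM in controls 2 to 4 and 7.45, 31.2, 25.4 and 0 CPM in PPTx 1 to 4, on 17 UMIs. It exceeded the β-cell level of its own sample in 1 of 6 α and 1 of 7 PP sums. The log2 fold changes were -1.22 ± 0.45 (adjusted p = 0.0381) and -1.45 ± 0.37 (adjusted p = 0.00127, both edgeR). The α call was lost in 9 of 14 alternatives, which were library sizes outside the hormone genes, DESeq2, the stricter count filter, the removal of called doublets, and the fits without control 1, control 4, PPTx 1, PPTx 2 or PPTx 3, and the PP call with DESeq2 (adjusted p = 0.0854). The β-cell side of these fits holds the PPTx samples in which Srm was high. In controls 1 to 4 the β-cells measured 20.4, 25.6, 25.2 and 27.3 CPM. The α values of controls 2 to 4 lay near these, and the PP values of controls 2 to 4 lay on both sides. A difference within controls alone was not tested.

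Nop10 and Nob1 were also called lower. Nop10, the smallest protein of the box H/ACA particle, had log2 fold changes of -1.04 ± 0.34 in α-cells (adjusted p = 0.0145) and -0.93 ± 0.31 in PP cells (adjusted p = 0.0181, both edgeR). On the CPM scale it was lower than in β-cells in 3 of 6 α sums and 5 of 7 PP sums. Without control 2, in whose α-cells it had no UMI, the α call was lost, and it was also lost without control 3, without PPTx 3 and with DESeq2. The PP call was lost without control 2, control 3 or PPTx 3, with DESeq2, with the stricter count filter and with library sizes outside the hormone genes. Nob1, an endonuclease of the small subunit, was lower in 7 of 7 PP sums (-2.0 ± 0.76, adjusted p = 0.0479, edgeR) on 3 UMIs, and this call was lost in 8 of the 11 alternatives that tested it, among them the fits without control 2, 3 or 4 and without PPTx 2, 3 or 4. Neither difference from β-cells was called by DESeq2. Others had an unadjusted edgeR p under 0.05 without a call. In PP cells this was Eif5a at -0.49 ± 0.22 (unadjusted p = 0.0277, adjusted p = 0.116, edgeR). In α-cells Dkc1 lay at -2.06 ± 0.92 (unadjusted p = 0.0245, adjusted p = 0.108, edgeR), higher than in β-cells in 0 of 6 sums. Dkc1 had 3 UMIs in all α-cells, and of these sums only that of control 3 held any. Little can be read from that order. Mybbp1a lay at 0.998 ± 0.494, higher in 6 of 6 sums (unadjusted p = 0.0434, adjusted p = 0.166, edgeR), and Fbl at 0.99 ± 0.50, higher in 3 of 6 (unadjusted p = 0.0486, adjusted p = 0.180, edgeR). The 25 and 24 remaining tested members were not called in α- and PP cells, and Myc, Odc1, Nhp2, Polr1b, Rrp9, Rrp12 and Amd1 were too scarce to test. The medians of the members were -0.15 and -0.22 against -0.18 and -0.15 for all genes tested.

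**Figure D4:**
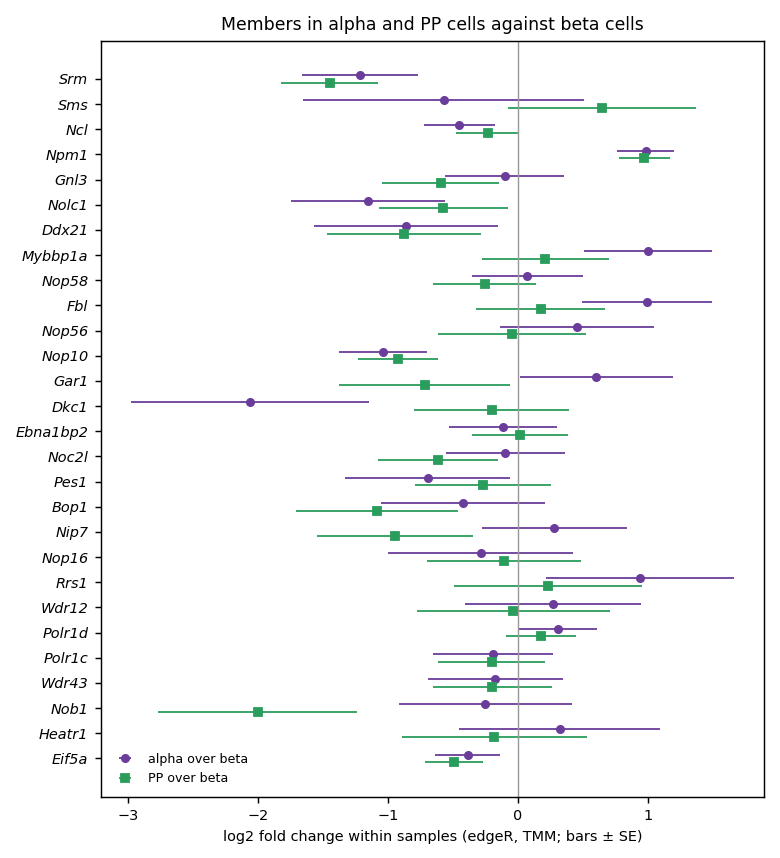
Log2 fold change of α-cells (purple circles) and PP cells (green squares) over β-cells of the same samples (horizontal axis, edgeR) for the 28 tested members, with bars for the standard error. Npm1 lies near 1 in both, and Srm and Nop10 lie at or below about -0.9 in both.

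The summed level differed between hormone classes in CPM of all UMIs, and less so outside the hormone genes. In CPM it was 802 ± 117 in β-cells (n = 8), 1183 ± 122 in α-cells (n = 6) and 874 ± 81.8 in PP cells (n = 7), with 1543 in the 1 sample that had 5 delta cells (all SD). Hormone genes took 64.3%, 48.1%, 62.8% and 44.0% of the UMIs of these classes. In CPM computed outside the hormone genes the means were 2244 ± 242, 2282 ± 255, 2350 ± 171 and 2755. The α to β difference thus fell from 0.57 to 0.04 on the log2 scale. Pooled over all 16 delta cells of the study, Nop10 had 8 UMIs (162 CPM), Npm1 7 (142 CPM) and Ncl 6 (122 CPM), and these values have no replicate.

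**Figure D5:**
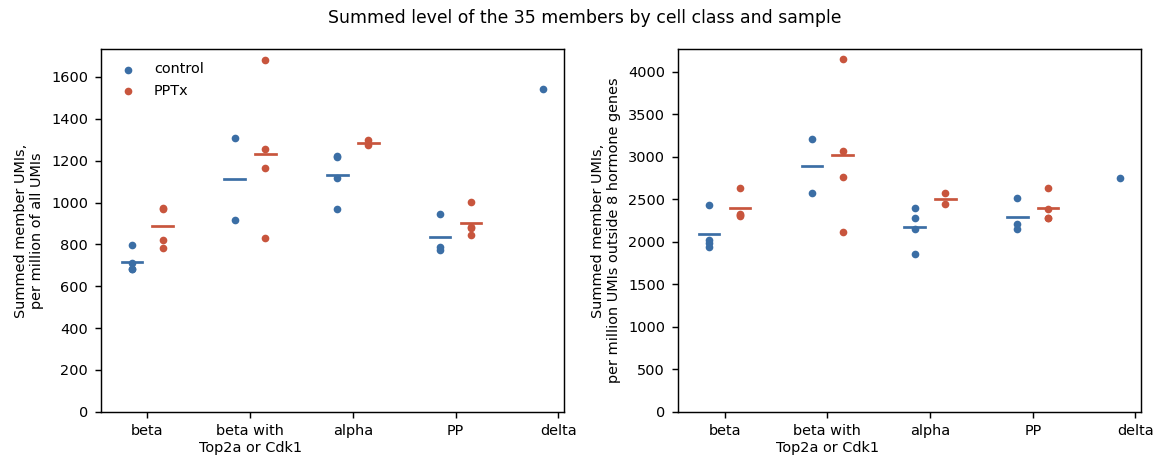
Summed level of the 35 members in CPM of all UMIs (left) and in CPM computed outside 8 hormone genes (right), by cell class, with 1 point per control (blue) and PPTx (red) sample and bars for group means of 2 or more samples. On the left α-cells (mean 1183) stand above β-cells (802), and on the right the 2 classes overlap (2282 and 2244).

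Other genes of the same pathways were counted from fixed lists. Of 104 further ribosome biogenesis genes, 102 were in the tables and 92 were tested between PPTx and control in β-cells. None was called by edgeR, where 0.303% of all genes tested were called. Of the 92, 70 had a positive log2 fold change, against 50.8% of all genes tested, and the median was 0.25 against 0.01. Of 22 other genes of polyamine and hypusine metabolism 14 were tested, and of 15 genes of the Myc network 13, and none of either was called. In the Top2a or Cdk1 cells, Mxd3, a Max partner that opposes Myc, was higher (5.83 ± 0.77, adjusted p = 1.7e-11) and Mlxipl, a glucose-responsive factor, lower (-1.14 ± 0.32, adjusted p = 0.0130). The Mxd3 call held with library sizes outside the hormone genes and that of Mlxipl did not. No further ribosome biogenesis or polyamine gene was called there by edgeR.

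Between hormone classes, Dohh, which completes hypusine on Eif5a, was lower in PP cells (-2.10 ± 0.49, adjusted p = 0.000288), as was Atp13a3 (-1.09 ± 0.38), a polyamine transporter. Mlxipl was lower in α- and PP cells (-2.50 ± 0.31 and -1.61 ± 0.25), and Mycbp2, a large protein that binds Myc, was higher in PP cells (0.79 ± 0.24). Of 62 other ribosome biogenesis genes tested, Las1l was called lower in α-cells (-2.16 ± 0.74), and Lyar (-2.45 ± 0.71) and Znrd1 (-1.25 ± 0.43) in PP cells, when 18.1% and 18.4% of all genes tested were called. None was called higher with TMM. With library sizes outside the hormone genes, Dcaf13 and Nop2 were called higher in PP cells, and the calls of Znrd1 and Atp13a3 were lost. All values in this paragraph are log2 fold changes by edgeR.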

How the data were processed

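Single islet cells of 4 control and 4 PPTx samples were sequenced, and the authors deposited for each sample a table of raw UMI counts per gene and cell, aligned to mm10. The labels name bcl2fastq and a Chromium kit, and the study's methods name the ddSEQ system, so the platform is uncertain. The study's methods name Cell Ranger for filtering and UMI counting, but give no rule by which it kept barcodes as cells. The lowest cell total was 2005 UMIs. Cells outside the study's limits on genes and UMIs (8 cells) were left out here.

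Cells were classed by UMIs of Ins1, Ins2, Gcg, Sst, Ppy and Ghrl, which were left out of tests between classes (Top2a and Cdk1 likewise from their own comparison). Hormone shares and library sizes outside the hormone genes also count Iapp and Pyy. A classed cell had at least 10% hormone UMIs. β-cells had at least 90% insulin among these, and other classes at least 50% of their own hormone, and 15 cells lay between 80% and 90% insulin. Counts were summed per class and sample with at least 5 cells (3 for Top2a or Cdk1 cells). Sums were tested with edgeR 4.0.16 (R 4.3.3; TMM, quasi-likelihood, Benjamini-Hochberg adjustment over all genes tested, threshold 0.05, count minimum 3 with 10 in total), with sample as a block for comparisons within samples. Alternatives were library sizes outside the hormone genes, DESeq2 1.42.0, other filters, no Scrublet doublets (scanpy 1.11.5), classes by the leading hormone, a replicate block and leaving out each sample. Doublets were kept in the main fits. Tests were tried on simulated counts with known changes. At a log2 fold change of 1, 13.0% of changed genes were called for PPTx in β-cells. None were called for Top2a or Cdk1 cells or for the difference between classes. At 2, the shares ran from 10.0% (the difference between classes) to 76.8% (PPTx in other hormone cells). A member that was not called is thus not shown to be unchanged. The ± values are SDs over samples or standard errors of the fits, and both include the spread between samples. The floor given for Amd1 covers counting error only.

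The members and gene lists were chosen with earlier results of these data known. Every member was reported, and from the other lists the called genes were named by lowest p, at most 3 per direction. One called gene of these lists is not reported here.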

Additional observations from a re-analysis of the deposited data

Results flagged for a closer look

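Among 74 groups of 4 β-cell samples checked, 8 held a sample far from the other 3 (its gap to the nearest sample, as a share of the range, above Dixon's critical value), and chance gives about 1 in 20. Control 1, the sample with the fewest UMIs, was high for Sms (10.2 CPM), Ncl (117 CPM), Wdr12 (25.5 CPM) and Nob1 (25.5 CPM). PPTx 1 was low for Ncl (44.5 CPM) and high for Pes1 (23.6 CPM). PPTx 2 was high for Odc1 (24.0 CPM), and PPTx 4 was low for Nhp2 (5.60 CPM). The Sms value rested on 2 UMIs, those of Wdr12 and Nob1 on 5 each, and that of Nhp2 on 3.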

How the results depend on the processing

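Over the single members, 2479 values kept their direction and their side of the threshold or moved by less than the spread, 40 lost a call, 7 gained one, 187 moved further, and no called value turned its direction. Of members called, α-cells against β-cells had 3, and 1 with DESeq2 and 1 to 3 when a sample was left out. PP cells had 4, and 2 with library sizes outside the hormone genes, 1 with DESeq2, 2 with the stricter filter and 2 to 3 when a sample was left out. Top2a or Cdk1 cells had 0, and 2 with library sizes outside the hormone genes, 2 with DESeq2, 1 with at least 2 replication marker UMIs, 1 with sums of at least 1 cell and 0 to 1 when a sample was left out. PPTx against control had 1 in β-cells, 0 in β-cells with no UMI of the 20 markers, and 0 to 1 when a sample was left out. Without Top2a or Cdk1 cells it had 1, 0 with DESeq2, which gave Srm no adjusted p, and 0 to 1 when a sample was left out.

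Of all genes called, the stricter filter, which tests fewer genes, gave 854 in α-cells (1351) and 862 in PP cells (1369). In Top2a or Cdk1 cells (511) library sizes outside the hormone genes gave 306, DESeq2 220, the stricter filter 306, thinned cells 145 and leaving out a sample 256 to 373. PPTx in β-cells (28) gave 76 with no filter, 18 by the leading hormone, 12 without marker UMIs and 10 to 48 when a sample was left out. Without Top2a or Cdk1 cells (27) it gave 17 with the stricter filter, 56 with none and 7 to 34. In other hormone cells (22) it gave 11 with DESeq2, 10 with the stricter filter, 12 with none and 6 to 28, and the difference between classes (7) gave 1 with DESeq2 and 0 to 10. The cause was not tested.

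With the replicate block, PPTx gave 75 genes in β-cells, 60 without Top2a or Cdk1 cells and 12 in other hormone cells, and Srm kept its call (1.08 on the log2 scale). The numbers share no stated origin, same-numbered samples correlated at 0.03 to 0.09 over 9236 genes, and 7 of 8 samples correlated best with their own number, a hint from the data and not the design.

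The log2 ratio of the summed level in α- to β-cells (0.57) was 0.041 outside the hormone genes and 0.37 without Npm1 and Eif5a, and that of PP to β-cells (0.11) was -0.13 without them. As a mean of log2 (CPM + 1), in which members at 0 in small sums weigh most, the ratios were -0.73 in α-cells, -0.89 in PP cells and -1.04 in Top2a or Cdk1 cells. Alternatives for delta cells were not run, since 1 sample had a sum. Few UMIs per member limited the precision.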
